A study of Homo sapiens with 4 samples.

Results

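Interferon-stimulated genes and sensors of double-stranded RNA were examined in HT29 and LIM1215 cells, both lines established from human colorectal cancers, after transfer of small interfering RNA (siRNA). The 36 genes were chosen by name, as RNA sensors, signalling proteins and interferon-induced genes, and each symbol matched 1 of the 60658 Ensembl identifiers in the deposited tables. Per line, 1 library came from cells given a negative control siRNA (labelled NC) and 1 from cells given an siRNA against TMEM161A (labelled si2), 4 libraries in all. No group had a replicate, so no value below has an error between cultures and none of the differences was tested. All 4 libraries came from siRNA-treated cells, and no library of untransfected cells was analysed here, so a response shared by both siRNAs cannot be seen in a comparison of them. Dose, time after transfection and siRNA sequence were not given in the sources used here.

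Double-stranded RNA in the cytosol is bound by RIGI and by IFIH1 (MDA5), which signal through the mitochondrial protein MAVS to the transcription factor IRF3, while TLR3 senses it in endosomes. The interferon this produces acts through JAK kinases on a complex that includes STAT2 and IRF9 and binds the interferon-stimulated response element in the promoters of many antiviral genes. An siRNA is itself a short RNA duplex, and some siRNAs are known to set off this pathway, so the genes serve as a check of innate sensing.

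The targeted gene and the cell type were checked first. TMEM161A had an FPKM (fragments per kilobase of gene, scaled to the mapped fragments of the library) of 42.6 with control and 4.64 with TMEM161A siRNA in HT29, and of 39.1 and 7.61 in LIM1215. Depth, estimated from the steps between low values, came to 18.06 to 21.54 fragments per kilobase at an FPKM of 1. Of 8 epithelial markers, all 8 reached an FPKM of 1 in both LIM1215 libraries and 5 did in both HT29 libraries. The intestinal epithelial genes VIL1, LGALS4 and KRT20 were at 0.04, 0.61 and 0.31 in the HT29 control, against 192, 316 and 67.8 in the LIM1215 control. The intestinal genes CDX1, CEACAM5 and MUC13, chosen after their values were seen, were listed at 0 in the HT29 control and at 88.4, 84.3 and 304 in the LIM1215 control. HT29 cells are generally known to express VIL1 and CEACAM5, so these values go against the label. Line identity was not tested, and HT29 below means the libraries labelled so. Immune cell markers summed to an FPKM of 0.53 to 2.77 over 10 genes, and the leukocyte gene PTPRC was listed at 0 in all 4 libraries. Of 8 stromal and endothelial markers, 1 reached an FPKM of 1 in each library, with 17.6 in the HT29 and 4.83 in the LIM1215 control.

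Promoter sequences show which of these genes carry the letters of the response element. RefSeq promoter windows (GRCh38.p14, 250 bases before to 50 after a start site) matched 28 of the 36 genes. The core letters, GAAA followed after any 2 bases by a second GAAA, were searched on both strands (TTTC, 2 bases, TTTC on the other) and found for 19 of these 28 genes (67.9%), and for 4.38% of all 27305 genes with a window. Counted by window, 23 of 38 windows of these genes held them, against 3.57% of 35116 windows in all. Below are 1 site each from genes not past 2-fold between the lines (IFIT1, ISG15, IFITM3), from genes far higher in LIM1215 (IFITM1, MX1, IFI27) and from IFI44. Of the genes with a mean FPKM of at least 1, IFI44 had the largest log2 ratio of FPKM + 1 between siRNAs. Each site is written 5′ to 3′ on the strand of its gene, with the matching letters in capitals.
IFIT1, chr10:89392497-89392526, plus strand: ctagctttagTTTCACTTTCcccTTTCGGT
ISG15, chr1:1013380-1013409, plus strand: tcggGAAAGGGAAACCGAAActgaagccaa
IFITM3, chr11:320876-320905, minus strand: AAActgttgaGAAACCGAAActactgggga
IFITM1, chr11:314024-314053, plus strand: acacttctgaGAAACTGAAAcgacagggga
MX1, chr21:41420559-41420588, plus strand: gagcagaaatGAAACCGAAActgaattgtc
IFI27, chr14:94110618-94110647, plus strand: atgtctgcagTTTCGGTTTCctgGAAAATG
IFI44, chr1:78649761-78649790, plus strand: gcacactgagTTTCAGTTTCctttctctga
Sites of this kind thus occurred in genes whose levels differed widely between the lines and in genes whose levels did not. A match is a run of letters and shows no binding.

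**Figure D1:**
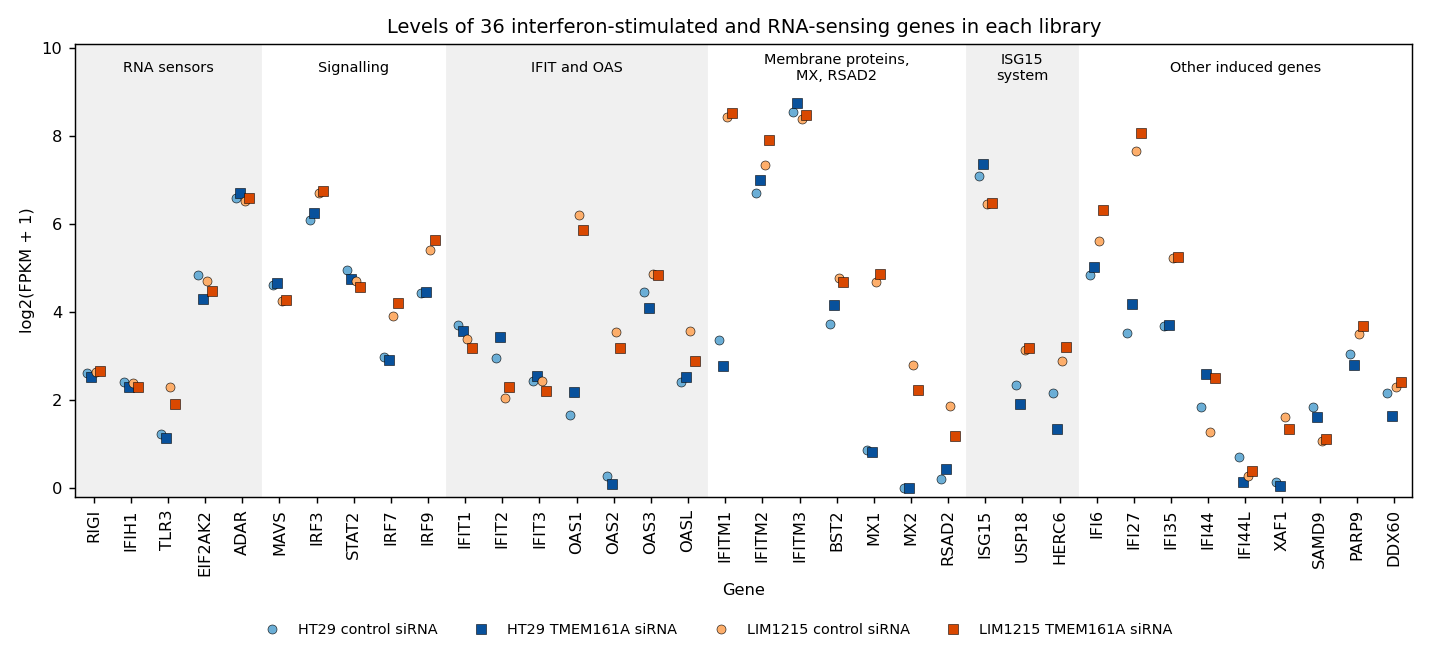
Level of each of the 36 genes on the y axis, as log2(FPKM + 1), in the 4 libraries (circles, control siRNA; squares, TMEM161A siRNA; blue, HT29; orange, LIM1215), grouped by role along the x axis. Points of 1 line lie close together for most genes, whereas IFITM1, OAS1, OAS2, MX1, MX2 and IFI27 separate the lines.

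Most of the genes were transcribed in every library. An FPKM of at least 1 was reached by 30 of the 36 in each HT29 library and by 35 in each LIM1215 library. The median over the 36 genes was 6.81 in the HT29 control and 5.89 in the HT29 knockdown library, and 12.4 and 14.6 in LIM1215. IFITM3, a membrane protein that blocks virus entry, had the highest level in both HT29 libraries (376 in the control). The 9 interferon genes looked up were at or near 0. IFNB1, IFNA1, IFNA2, IFNK and IFNG were listed at 0 in all 4 libraries, and IFNL1, IFNL2 and IFNL3 did not exceed 0.36. The highest of the 9 interferon genes was IFNE, with 0.81 in the HT29 control. Induced genes were detected in libraries where these 9 genes were at or near 0, and other interferon genes were not looked up.

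TMEM161A siRNA was compared with control siRNA within each line. Differences are given as the log2 ratio of FPKM + 1, which understates differences of low genes, and were limited to genes averaging an FPKM of 1 or more across the libraries. Of the 36 genes, 34 passed this minimum, and IFI44L and XAF1 did not. None of the 34 reached a 2-fold difference in either direction in HT29, where 1.85% of the 14803 genes compared were higher and 1.95% lower. In LIM1215, 1 of the 34 was higher by 2-fold and none lower, against 1.68% and 1.78% of all genes. That gene was IFI44. At 1.5-fold, HT29 had 2 of the 34 genes higher and 1 lower (7.87% and 6.91% of all genes), and LIM1215 had 2 higher and 2 lower (6.63% and 6.18%). The median log2 ratio of the 34 genes was 0.0098 in HT29, against 0.04 for all genes compared, and 0.04 in LIM1215, against 0.02. A log2 ratio within 0.5 of 0 was found for 27 of the 34 in HT29 (79.4%, against 80.0% of all genes) and for 28 in LIM1215 (82.4%, as for all genes). The genes therefore spread about as widely as all genes did, around a median near 0.

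Depth was high enough that small ratios lay outside counting error. The 95% counting interval of the FPKM ratio, an exact interval that covers counting error only, lay above 1 for 12 and below 1 for 11 of the 34 genes in HT29. Of the 13822 genes compared with a transcript of at least 500 bases, 37.6% lay above and 28.6% below in HT29. In LIM1215 the interval lay above 1 for 13 and below 1 for 9 genes, against 34.2% and 29.4%. These shares were close to the background. Above 1 in both lines were ADAR, IFIT2, IFITM2, IFITM3, IFI27 and IFI44, and below 1 in both were EIF2AK2, STAT2, IFIT1 and OAS2. A further 5 genes lay on opposite sides. Of all 13822 genes, 20.2% lay above 1 in both lines, 15.8% below 1 in both and 10.8% on opposite sides.

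**Figure D2:**
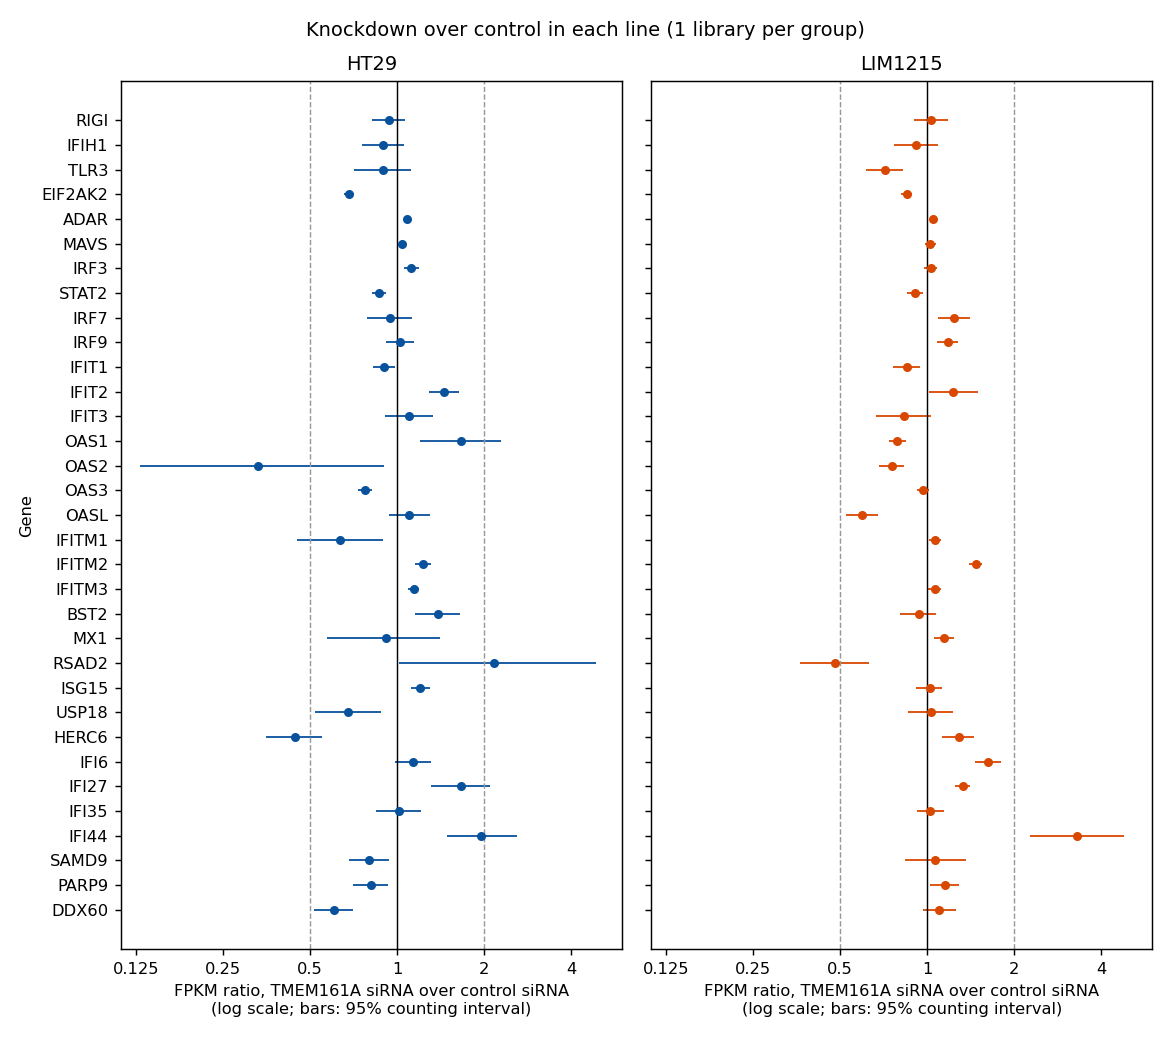
FPKM ratio of TMEM161A over control siRNA on the x axis (log scale) for 33 genes, in HT29 (left) and LIM1215 (right), with bars for the 95% counting interval and dashed lines at 2-fold. MX2, listed at 0 in HT29, and the genes IFI44L and XAF1 below the minimum are left out; IFI44 lies right of 1 in both lines, and HERC6 lies left of 1 in HT29 and right of 1 in LIM1215.

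The RNA sensors were described one by one, since they would meet the siRNA first. RIGI, the sensor of short duplexes with a triphosphate end (ENSG00000107201, chromosome 9, 32455302 to 32526208, minus strand, GRCh38), had an FPKM of 5.11 and 4.78 in HT29 and of 5.19 and 5.35 in LIM1215, control first. IFIH1, the sensor of long duplexes, had 4.35 and 3.89 in HT29 and 4.23 and 3.87 in LIM1215. All 8 of these values lay between 3.87 and 5.35, and every counting interval of their knockdown ratios included 1. Of the 50-base stretches of the RIGI transcript, 96.6% also occur in another annotated gene model. That model has no value in the deposited data, and how shared fragments were assigned was not given. TLR3 stood at 1.35 and 1.21 in HT29 and at 3.87 and 2.76 in LIM1215, where the ratio was 0.713 (0.614 to 0.827).

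EIF2AK2 and ADAR, both strongly transcribed, went different ways. EIF2AK2 (PKR), a kinase that stops translation when it binds double-stranded RNA and is itself interferon-induced, had an FPKM of 27.6 with control and 18.8 with TMEM161A siRNA in HT29. In LIM1215 it had 25.1 and 21.3. Its ratio was 0.682 (0.655 to 0.710) in HT29 and 0.848 (0.812 to 0.884) in LIM1215, lower in both lines. ADAR, which edits adenosines in double-stranded RNA and so keeps the cell's own RNA from being sensed, had 95.9 and 104 in HT29 and 91.7 and 95.9 in LIM1215. Its ratios were 1.08 (1.06 to 1.11) and 1.05 (1.02 to 1.07).

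Signalling genes differed little between siRNAs. MAVS had 23.5 and 24.4 in HT29 and 17.9 and 18.4 in LIM1215, with log2 ratios of 0.05 and 0.03. IRF3, which overlaps BCL2L12 on the opposite strand, had 67.4 and 75.5 in HT29 and 104 and 107 in LIM1215. STAT2 was slightly lower with TMEM161A siRNA in both lines, at 29.97 and 25.9 in HT29 and 25.02 and 22.7 in LIM1215 (log2 ratios −0.20 and −0.14). IRF9, its partner, had 20.5 and 21.00 in HT29 and 41.4 and 48.6 in LIM1215, with log2 ratios of 0.03 and 0.23. IRF7, an interferon-induced factor that amplifies interferon production, had 6.88 and 6.48 in HT29 and 14.02 and 17.3 in LIM1215 (−0.07 and 0.29). Of these 5 genes, none differed by as much as 0.3 on the log2 scale in either line.

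Among the induced genes, IFI44 was the one higher in both lines by the most. IFI44 (ENSG00000137965, chromosome 1, 78649796 to 78664078, plus strand) encodes an interferon-induced protein with antiviral activity. In HT29 it stood at 2.55 with control and 4.98 with TMEM161A siRNA, and in LIM1215 at 1.41 and 4.62. The ratio was 1.95 (1.49 to 2.59) in HT29 and 3.29 (2.26 to 4.79) in LIM1215, with log2 ratios of 0.75 and 1.22. The estimated fragments behind these values numbered 80.2 and 159 in HT29, and 37.6 and 139 in LIM1215. With a pseudocount of 5 in place of 1 IFI44 was below 2-fold in LIM1215 too. Its neighbour and paralog IFI44L, which shares no 50-base stretch with any other gene, was at 0.63 and 0.10 in HT29 and at 0.20 and 0.30 in LIM1215. The IFI44L ratio in HT29 was 0.152 (0.077 to 0.288), on an estimated 75.6 and 11.7 fragments, in the direction opposite to IFI44. In LIM1215 it was 1.5 (0.84 to 2.68), an interval that includes 1.

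IFI27 and IFI6, small interferon-induced proteins, also had higher values in both lines. IFI27 had 10.4 and 17.3 in HT29 and 202 and 268 in LIM1215, a ratio of 1.66 (1.31 to 2.1) and 1.33 (1.25 to 1.41). IFI6 had 27.8 and 31.5 in HT29, with an interval that included 1, and 48.3 and 78.4 in LIM1215, a ratio of 1.62 (1.46 to 1.80). IFITM2 had 103 and 127 in HT29 and 162 and 239 in LIM1215, with log2 ratios of 0.29 and 0.56. These genes stayed short of 2-fold.

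The genes commonly read as first signs of an interferon response went in different directions. IFIT1, which binds the ends of foreign RNA, was at 12.01 and 10.8 in HT29 and at 9.49 and 8.05 in LIM1215, with log2 ratios of −0.14 and −0.21. IFIT3 had 4.41 and 4.86 in HT29 and 4.37 and 3.63 in LIM1215, and both intervals included 1. IFIT2 was higher in both lines, at 6.74 and 9.79 in HT29 (log2 ratio 0.48) and at 3.14 and 3.87 in LIM1215 (0.23). ISG15, a ubiquitin-like modifier, had 136 and 163 in HT29 and 86.3 and 88.0 in LIM1215, with log2 ratios of 0.26 and 0.03. USP18, which removes ISG15 and dampens the interferon receptor, had 4.09 and 2.76 in HT29 and 7.83 and 8.05 in LIM1215 (−0.44 and 0.04). MX1, an antiviral GTPase, had 0.82 and 0.75 in HT29 and 24.8 and 28.4 in LIM1215, with log2 ratios of −0.06 and 0.18. IFI35 was nearly level, at 11.9 and 12.03 in HT29 and at 36.4 and 37.4 in LIM1215.

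In LIM1215 several antiviral effectors were lower with TMEM161A siRNA. RSAD2 (viperin), an enzyme that makes a chain-terminating nucleotide, was at 2.65 with control and 1.28 with TMEM161A siRNA, a ratio of 0.481 (0.363 to 0.631). OASL, a relative of the oligoadenylate synthetases without their enzyme activity, had 10.8 and 6.43, a ratio of 0.595 (0.523 to 0.676). MX2 had 5.88 and 3.66, a ratio of 0.622 (0.524 to 0.736). OAS1 and OAS2, which make the oligoadenylates that switch on RNase L, had 73.1 and 57.7 (ratio 0.789, 0.738 to 0.842) and 10.7 and 8.08 (0.753, 0.681 to 0.832). In HT29 these genes were low. RSAD2 was at 0.16 and 0.34 and OAS2 at 0.21 and 0.07 there, MX2 was listed at 0 in both libraries, OAS1 stood at 2.14 and 3.55, and OASL stood at 4.32 and 4.75. None of the 5 passed 2-fold on the log2(FPKM + 1) scale, and RSAD2 did with a pseudocount of 0.1.

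In HT29 another set was lower. HERC6, a member of the HERC ubiquitin ligase family, was at 3.46 with control and 1.53 with TMEM161A siRNA, a ratio of 0.442 (0.353 to 0.551) and a log2 ratio of −0.82, which passed 2-fold with a pseudocount of 0.1. In LIM1215 it was at 6.39 and 8.20, a ratio of 1.28 (1.13 to 1.46). DDX60, a helicase thought to aid RIGI, had 3.49 and 2.11 in HT29 and 3.94 and 4.34 in LIM1215 (log2 ratios −0.53 and 0.11). PARP9, the binding partner of the ubiquitin ligase DTX3L, had 7.31 and 5.92 in HT29 and 10.3 and 11.8 in LIM1215 (−0.26 and 0.18). SAMD9, which restricts poxviruses, had 2.58 and 2.06 in HT29 and 1.08 and 1.14 in LIM1215 (−0.23 and 0.04). OAS3, the largest oligoadenylate synthetase, had 20.8 and 16.1 in HT29 and 28.4 and 27.5 in LIM1215 (−0.35 and −0.04). BST2 (tetherin), which holds budding virus on the cell, was the other way round, at 12.2 and 16.9 in HT29 and 26.4 and 24.7 in LIM1215 (0.43 and −0.10). By sign alone, 12 of the 34 genes were higher in both lines, 7 lower in both and 14 opposite, against 5324, 4145 and 5000 of the 14803 genes compared (28.0% lower in both and 33.8% opposite). The sign of MAVS, IRF9 and IFI35 in HT29 turned after scaling every library to the same FPKM sum (−0.03, −0.05 and −0.05).

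**Figure D3:**
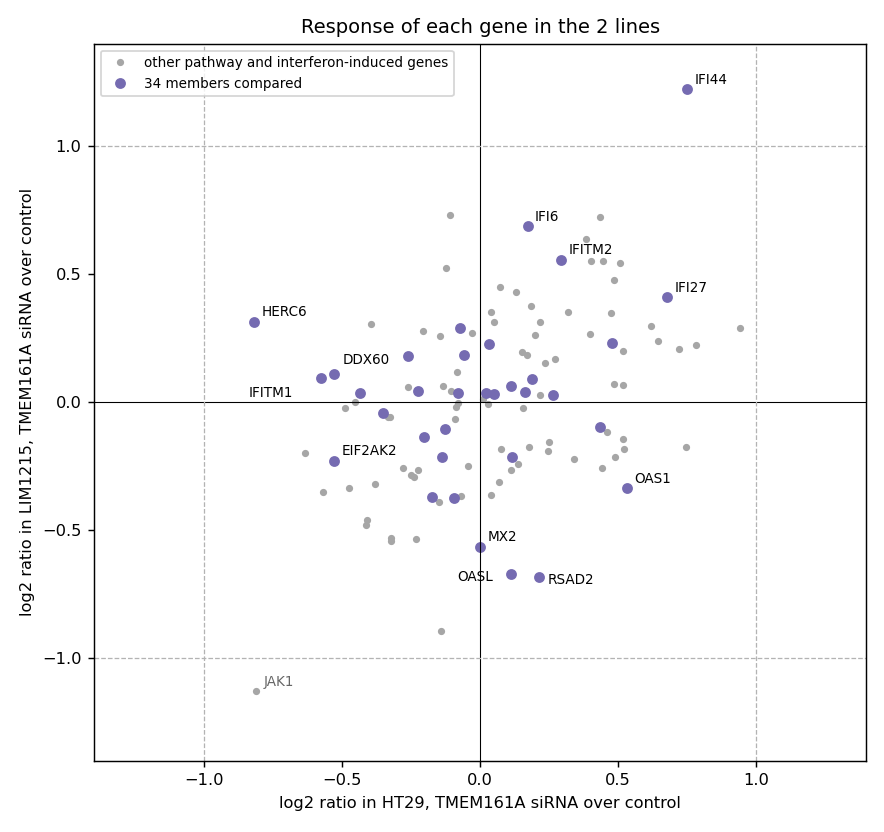
Log2 ratio of FPKM + 1, TMEM161A over control siRNA, in HT29 (x axis) and LIM1215 (y axis), 1 point per gene, for the 34 genes compared (purple) and the other genes of the pathway and other interferon-induced genes (grey). Dashed lines mark 2-fold; IFI44 lies above the upper line, JAK1 below the lower one, and the purple points surround the origin.

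The rest of the pathway was read from fixed lists. Of 61 other genes of sensing and interferon signalling, 45 passed the minimum. None of them passed 2-fold in HT29, where 1.85% of all genes were higher and 1.95% lower. In LIM1215 none was higher by 2-fold and 1 was lower, against 1.68% and 1.78% of all genes. That gene was JAK1, the kinase shared by the receptors of all interferon types (ENSG00000162434, chromosome 1, 64833223 to 65067754, minus strand). JAK1 had an FPKM of 35.8 with control and 19.97 with TMEM161A siRNA in HT29, a ratio of 0.558 (0.529 to 0.589). In LIM1215 it had 49.5 and 22.1, a ratio of 0.447 (0.424 to 0.470). Its level was lower with TMEM161A siRNA in both lines, by a log2 ratio of −0.81 and −1.13. All 6 interferon receptor genes had log2 ratios below 0 in LIM1215 (−0.54 to −0.02), and 4 of 6 did in HT29, where 46.4% and 44.4% of all genes compared lay below 0. Of 35 other interferon-induced genes, 31 were compared and none passed 2-fold in either line, beside the same shares of all genes. Their medians were 0.11 and 0.15, against 0.04 and 0.02 for all genes compared. Of 16 genes typical of interferon gamma, 6 were compared and none passed, beside the same shares.

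The control libraries of the lines were then compared. LIM1215 had 11 of the 34 genes higher by 2-fold than HT29 and none lower, where 12.0% of all genes compared were higher and 7.42% lower. OAS2, MX1, MX2 and RSAD2 stayed under an FPKM of 1 in both HT29 libraries and passed the minimum through LIM1215. The minimum itself thus favoured their being higher in LIM1215. Of the other 30 genes, 7 were higher by 2-fold. At 1.5-fold, 18 of the 34 were higher and 3 lower, against 21.8% and 16.3% of all genes. The counting interval lay above 1 for 20 and below 1 for 10, against 43.5% and 35.6%. The median log2 ratio of the 34 genes was 0.63, against 0.05 for all genes compared. The split of all genes into 1773 higher and 1099 lower became 1489 and 1452 after scaling every library to the same FPKM sum, which shifted the median of all genes by −0.16, while 8 of the 11 genes stayed past 2-fold. TLR3, OASL and BST2 dropped below 2-fold with that scaling, and IFIT2 then passed as lower. In libraries from bulk cells, more cells with a transcript and more transcript per cell cannot be told apart.

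The widest differences concerned membrane proteins, oligoadenylate synthetases and MX proteins. IFITM1 (ENSG00000185885, chromosome 11, 310041 to 315272, plus strand), a surface protein that restricts virus entry, had an FPKM of 9.23 and 5.85 in the HT29 libraries and of 346 and 369 in those of LIM1215. The LIM1215 control was higher 37.4-fold (30.6 to 47.0). OAS1 (ENSG00000089127, chromosome 12, 112905856 to 112933219, plus strand) was higher 34.1-fold (26.7 to 44.4), and OAS2 51.8-fold (33.7 to 88.5) on an estimated 19.4 fragments in HT29. IFI27 (chromosome 14, 94104836 to 94116695, plus strand) was higher 19.3-fold (16.1 to 23.6). The control libraries of the lines did not come near each other in these 4 genes.

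Both MX genes were at or near 0 in HT29. MX2 was listed at 0 in both HT29 libraries and stood at 5.88 in the LIM1215 control, so no ratio is given. MX1 was higher 30.4-fold in the LIM1215 control (22.4 to 41.6). MX1 overlaps TMPRSS2 on the opposite strand in 562 exon bases, 3.13% of its annotated exons, and TMPRSS2 was listed at 0 in the HT29 and at 55.3 in the LIM1215 control. The part of TMPRSS2 fragments in the level of MX1 was not tested. RSAD2 was higher 16.9-fold (8.94 to 33.6) on 10.7 fragments in HT29, and it overlaps CMPK2. XAF1, an antagonist of the apoptosis inhibitor XIAP that did not pass the minimum, was at 0.10 and 2.05, with 6.95 fragments in HT29.

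Smaller differences in the same direction were found for IFI35 (3.07-fold, 2.65 to 3.57), TLR3 (2.86-fold, 2.38 to 3.44), OASL (2.50-fold, 2.17 to 2.90) and BST2 (2.16-fold, 1.82 to 2.57). IRF7 and IRF9 lay just short of 2-fold on the log2 scale, at 0.93 and 0.98. USP18, IFI6, HERC6, IFITM2 and IRF3 were between 0.62 and 0.79. Among those below 0 were ISG15 (−0.65), IFI44 (−0.56), SAMD9 (−0.79) and IFIT2 (−0.90). RIGI, IFIH1 and ADAR were within 0.06 of 0. The pair of knockdown libraries, which shares no library with the controls, was then used in their place. In it 12 of the 34 genes were higher by 2-fold, against 12.7% of all genes compared. The 11 genes had been picked by the same difference between the lines, and the share of all genes higher in both pairs was not computed. Of the 11, 7 were again higher by 2-fold. These were OAS1, OAS2, IFITM1, MX1, MX2, IFI27 and IFI35. The minimum favoured a difference for OAS2, MX1 and MX2 in this pair too. Of the 30 genes that reached an FPKM of 1 in an HT29 library, 4 were higher in both pairs and 9 in the knockdown pair. TLR3, OASL, BST2 and RSAD2 were not, while IRF7, IRF9, USP18, HERC6 and IFI6 passed in that pair, and IFIT2 was lower by 2-fold (8.53% of all genes).

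**Figure D4:**
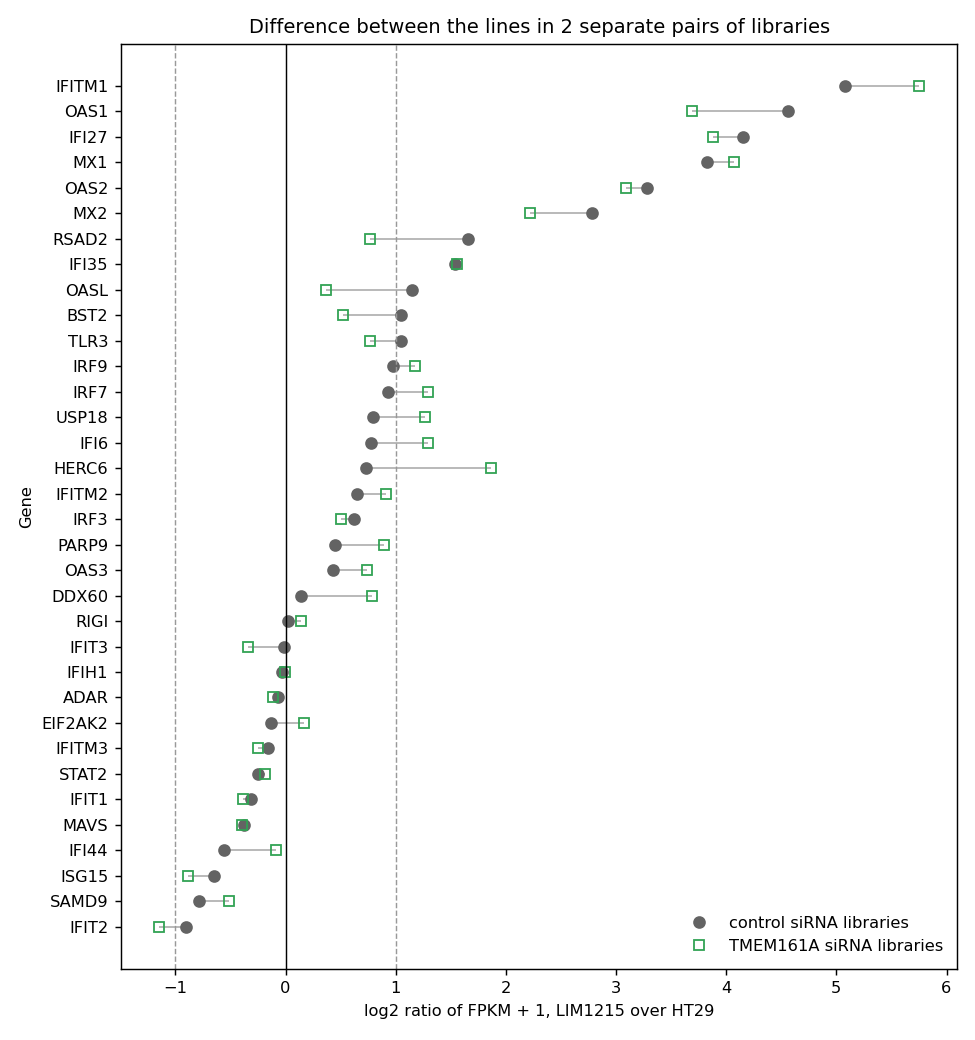
Log2 ratio of FPKM + 1, LIM1215 over HT29, on the x axis for the 34 genes compared, in the control siRNA libraries (filled circles) and the TMEM161A siRNA libraries (open squares), with dashed lines at 2-fold. The 6 genes at the top, from IFITM1 to MX2, lie above 2 in both pairs, and RIGI, IFIH1 and ADAR lie near 0 in both.

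Neighbouring genes of a family differed from each other. On chromosome 10 the plus-strand genes IFIT2, IFIT3 and IFIT1 lie within 89283694 to 89406487, and their LIM1215 over HT29 control ratios were 0.466, 0.990 and 0.791, none above 1. They lie within LIPA, a gene on the opposite strand, with up to 94 exon bases in common. On chromosome 11, IFITM1 lies between IFITM2, with a ratio of 1.57, and IFITM3, with 0.896, so of the 3 genes it alone was past 2-fold. Of the 50-base stretches of the IFITM1 transcript, 55.1% also occur in other gene models, 50.7% in an unnamed one, 15.8% in IFITM3 and 8.08% in IFITM2. The unnamed model has no deposited value. Fragments from the stretches shared within the family cannot be assigned uniquely. Stretches were also shared for USP18 (52.9%, with USP41 and unnamed models), IRF9 (92.8%, with an unnamed model) and IFI6 (21.9%, with LINC02574). The model shared with IRF9 had an FPKM of 0.80 in the HT29 and 1.47 in the LIM1215 control. USP41 was at 0.20 and 0.08 in these controls, and LINC02574 was listed at 0 in both. On chromosome 12, OAS3, between OAS1 and OAS2, was at 20.8 in the HT29 and 28.4 in the LIM1215 control, a ratio of 1.36 (1.30 to 1.43). In HT29, OAS3 was thus the most abundant of the 3 OAS genes, and in LIM1215 it was OAS1. On chromosome 21 both MX2 and MX1 were higher in LIM1215.

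**Figure D5:**
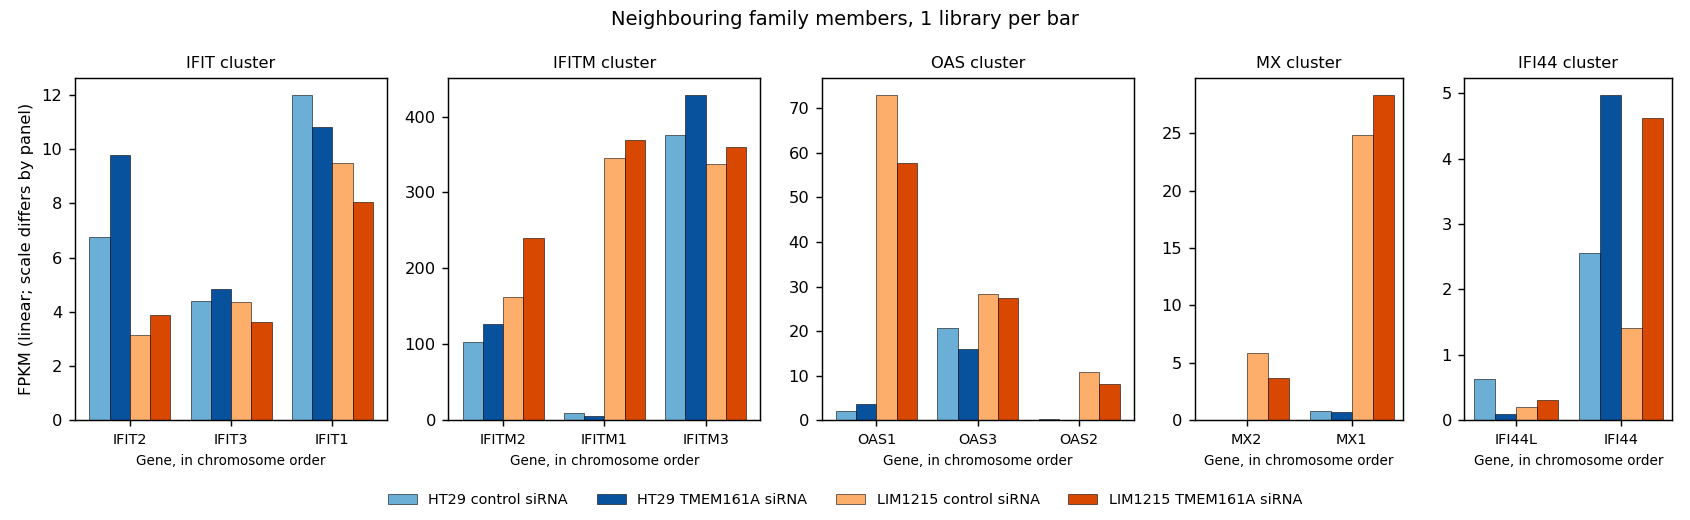
FPKM (y axis, linear, with its own scale in each panel) of neighbouring family members in chromosome order, 1 bar per library. IFITM1 and OAS1 are tall in LIM1215 only, beside IFITM3 and OAS3 with similar bars in both lines, and IFI44 is taller with TMEM161A siRNA in both lines.

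Some other sensors differed far more between the lines than RIGI and IFIH1 did. Of 8 other nucleic acid sensors compared, 2 were higher in LIM1215 by 2-fold and none lower, against 12.0% and 7.42% of all genes. PRKRA and TRIM25 were near level between the controls, with log2 ratios of 0.09 and −0.05. DHX58 (LGP2), a RIGI relative that lacks signalling domains, had an FPKM of 0.49 in the HT29 and 9.60 in the LIM1215 control. IFI16, a sensor of DNA, had 0.16 and 11.6. CGAS, the enzyme that makes cyclic GMP-AMP on DNA, had 0.02 and 1.42 and did not pass the minimum. Of the 35 other interferon-induced genes, 9 of the 31 compared were higher in LIM1215 by 2-fold and 3 lower, against the same shares of all genes. CMPK2, for example, and IFI16 stayed under an FPKM of 1 in both HT29 libraries and passed the minimum through LIM1215. The minimum thus favoured their being higher in LIM1215. Of the 45 pathway genes compared, 2 were higher in LIM1215 by 2-fold and 2 lower, against the same shares of all genes. Those higher were DHX58 and IFI16, and those lower were SOCS1 and SOCS3, inhibitors of JAK kinases. SOCS1 was at 1.70 in the HT29 and 0.32 in the LIM1215 control and SOCS3 at 9.23 and 3.63. The LIM1215 value of SOCS1 rested on an estimated 6.06 fragments.

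The promoters of the genes higher in LIM1215 were set beside those of the others. The response element letters were found for 6 of 8 matched genes higher in the LIM1215 control and for 12 of 18 others. These were 75% and 66.7%, against 4.38% of all genes. The letters TTCNNNGAA, which read the same on both strands and are the core of the interferon gamma activated site, were searched as well. They were found for 7 of the 8 matched genes that were higher in the LIM1215 control by 2-fold and for 2 of the 18 other matched genes compared, against 9.38% of all genes and 7.66% of all windows. This split was made from the measured levels, and the 8 genes had 12 windows against 23 for the 18, so the counts are a description. MX1 and RSAD2 were among the 8 and passed the minimum only through LIM1215, so the minimum itself favoured their being in that group. A link between these letters and the levels was not tested. IFI35 is shown because it held these letters and no response element letters, and IFI27 because the matches share bases. BST2 is shown because the printed match lay apart from its response element letters, although another BST2 match shared 3 bases with them. The matching letters are in capitals.
IFI35, chr17:43006752-43006780, plus strand: aggcagggatTTCACGGAAatgaaagtgg
BST2, chr19:17405670-17405698, minus strand: gtcagagcacTTCCTGGAActtgctattg
IFI27, chr14:94110625-94110653, plus strand: cagtttcggtTTCCTGGAAaatgaaacct
In IFI27 this match shares 6 bases with response element matches, as the site printed above shows. IFITM1 and MX1 also held the letters, with 3 bases shared. TLR3 held them with no shared base, and RSAD2 did not hold them. Among the other genes, DDX60 and IRF9 did.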

How the data were processed

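Poly(A) RNA libraries were made with a stranded kit, per the labels' protocols. The deposited values are FPKM per Ensembl gene, per the file headers, 1 table per library. The submitters' processing notes name HISAT2 2.1.0, SAMtools 1.20, Cufflinks 2.2.1, Cuffdiff and GRCh38. The annotation, library scaling and use of strand in counting are not given in the sources used here. Since FPKM is scaled to a library's total, changes in abundant genes move all others. Symbols and positions came from GENCODE release 44 on GRCh38.

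Ratios used log2(FPKM + 1), a mean FPKM of at least 1 and a 2-fold threshold, without p-values. Depth was estimated from the steps of low FPKM values of genes with 1 transcript of at least 500 bases: 79.6% to 82.0% of them lay within 0.03 of a whole fragment. The procedure was tested on simulated data. Fragments were counted over the canonical transcript length, and 95% intervals used the Clopper-Pearson method (scipy 1.17.1), for counting error only. All 36 members are reported. From the other lists, the genes named by rule are those past 2-fold with knockdown and the sensors, ligands and receptors past 2-fold between controls. Interferons at 0, CGAS, SOCS1, SOCS3, PRKRA, TRIM25 and CMPK2 are named in addition. Some items are not reported here. The members and lists were chosen with earlier results of these data known. Alternatives were a pseudocount of 0.1 or 5, no minimum or a mean of at least 5, rescaling to a common sum, upper quartile scaling and a 1.5-fold threshold.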

Additional observations from a re-analysis of the deposited data

Results flagged for a closer look

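For 5 of the 34 genes the ratio of TMEM161A over control siRNA lay above 1 in one line and below 1 in the other, with the 95% counting interval leaving out 1 in both. Of all 13822 genes compared with a transcript of at least 500 bases, 10.8% lay on opposite sides in this way. Each line had 1 library per siRNA, so the difference between the lines was not tested. The log2 ratio in LIM1215 minus that in HT29 was 1.13 for HERC6 (0.32 and −0.82), 0.67 for IFITM1 (0.09 and −0.58), 0.45 for PARP9 (0.18 and −0.26), −0.87 for OAS1 (−0.34 and 0.53) and −0.89 for RSAD2 (−0.68 and 0.21). In HT29 these rest on an estimated 263 and 118 fragments for HERC6, 91.3 and 58.7 for IFITM1, 441 and 363 for PARP9, 64.9 and 109 for OAS1, and 10.7 and 23.5 for RSAD2, whose interval reached down to 1.01.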

How the results depend on the processing

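The counts and medians were recomputed under 7 alternatives. No paired analysis was possible because each group had 1 library and no replicate number. A fit with line as a block, which takes the lines as replicates of each other, was not run. Among genes past 2-fold between siRNAs, a pseudocount of 0.1 gave 1 lower gene in HT29 (HERC6) and 1 lower gene in LIM1215 (RSAD2). Of all genes, 3.77% and 3.43% were lower with that pseudocount. In LIM1215 the higher count fell to 0 with a pseudocount of 5 or a mean FPKM of at least 5, which left out IFI44. Of all genes, 0.459% and 0.842% were higher with these settings. At 1.5-fold, HT29 had 2 higher genes and 1 lower (7.87% and 6.91% of all genes), and LIM1215 had 2 higher and 2 lower (6.63% and 6.18%). The median of the genes in HT29 stayed between −0.05 and 0.04 and that in LIM1215 between 0.03 and 0.04.

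Between the controls, the higher count was 7 with a pseudocount of 5 and 7 with a mean of at least 5, and 18 at 1.5-fold. The lower count was 2 with a pseudocount of 0.1, 1 with rescaling to a common sum, 1 with upper quartile scaling, 3 at 1.5-fold and 1 with the knockdown libraries in place of the controls, an alternative chosen after seeing the data. The median log2 ratio was 0.45 with a pseudocount of 5, 0.45 with rescaling to a common sum, 0.48 with upper quartile scaling, which shifted the median of all genes by −0.13, and 0.75 with the knockdown libraries. The fewer genes at a mean of at least 5 and the wider call at 1.5-fold follow from those settings; for the rest the cause was not tested. No gene past 2-fold changed direction. Depth limits the HT29 values of OAS2, MX1, RSAD2, XAF1 and, with TMEM161A siRNA, IFI44L, which rest on fewer than 50 fragments each, and of MX2, listed at 0.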
